A study of Rattus norvegicus with 8 samples.

Results

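The C/EBP transcription factors were described here as the 5 genes Cebpa, Cebpb, Cebpd, Cebpe and Cebpg, chosen by name, out of 26204 gene names on a rat expression array. Each of the 5 was read by 1 probe, so the family took 5 of the 30350 probes with usable values, and all 5 probes were tested. Ovaries came from female rats injected under the skin at 26 days of age and killed 48 h later, at 28 days. The PMSG group (4 arrays) received 50 IU of PMSG (pregnant mare serum gonadotropin), which acts mainly like follicle-stimulating hormone, dissolved in vehicle. The control group (4 arrays) received the vehicle alone, an albumin phosphate buffer, in the same volume of 0.2 ml. RNA was taken from whole ovary, so fewer cells of a type and less RNA per cell cannot be told apart in any value below. The sources used here do not give the strain, or whether the 4 samples of a group came from separate animals, and p-values therefore measure the spread between these samples only.

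C/EBP proteins are basic leucine zipper (bZIP) factors that bind DNA as dimers with each other or with other bZIP proteins. They are best known for driving the last steps of differentiation in fat, liver and white blood cells. In the ovary, C/EBPβ is known as a factor that luteinizing hormone induces in granulosa cells through cyclic AMP and ERK kinases, and female mice without it fail to form normal corpora lutea. The comparison asks how the family's transcripts differed after a gonadotropin that starts follicle growth.

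Groups follow the sample titles and are written as arrays labelled PMSG and arrays labelled control. Star, Cyp11a1 and Lhcgr, which gonadotropins are generally known to raise in follicles, were lower in arrays labelled PMSG, with log2 differences of -2.75, -3.36 and -1.93 (limma adjusted p = 0.00541, 2.32e-04 and 0.00114). Every direction below rests on those titles: if titles had been exchanged, the sign of every difference would turn, which was not tested. Signals were read as log2 values minus each array's 75th percentile, which lay between a signal of 769 and 1103. Of all probes, 80.8% to 84.6% were well above background on an array. Markers listed for granulosa cells, theca cells and oocytes were above background on all 8 arrays. So were 22943 of the 30350 probes, among them the tested markers of adipocytes, neutrophils and red blood cells. Detection alone therefore does not check the ovary label. A probe passed where the adjusted p of limma, a linear model fitted over all 25303 tested probes, was under 0.05. A share of 34.2% of all tested probes passed in this comparison, 17.6% higher and 16.6% lower in arrays labelled PMSG. The median log2 difference of all tested probes was 0.11, and centring each array on its median moved it to -0.05.

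The first 30 of the 60 bases of each probe are shown, since every value below is the signal of these spots.
Cebpa: tctaggctgcccggaccgtgcaagccagga
Cebpb: gaggcgtatgtatattttgagaaccttttc
Cebpd: gagcagacgccgcccgaattgctacagttt
Cebpe: atggagacacagcagaaggtgttagagtac
Cebpg: ttaagtgtactgaaagacttgtttcttgag
In the array's build, rn4, the file headers place the Cebpa probe on chromosome 1 from 87627393 to 87627452 (plus strand) and the Cebpg probe on chromosome 1 from 87553468 to 87553527 (minus strand). The Cebpb probe lies on chromosome 3 from 158827761 to 158827820 (plus strand), and the Cebpe probe on chromosome 15 from 32788045 to 32788104 (minus strand). The array files list the Cebpd probe as unmapped. No annotation of that build was used, so exon and UTR positions are not given. Each probe was printed as 2 spots per array. All 8 spots of each member in each group were well above background, and none was saturated or an outlier. Spots of the same probe on 1 array differed by at most 0.17 (log2) for Cebpa, Cebpb, Cebpd and Cebpg, and by up to 0.68 for Cebpe.

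Of the 5 genes, 3 passed the threshold, against 34.2% of all probes. Cebpb and Cebpd were lower and Cebpa was higher in arrays labelled PMSG. For these 3 genes no PMSG array fell within the control range or the reverse, which held for 36.6% of all probes. Cebpe and Cebpg did not pass.

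**Figure D1:**
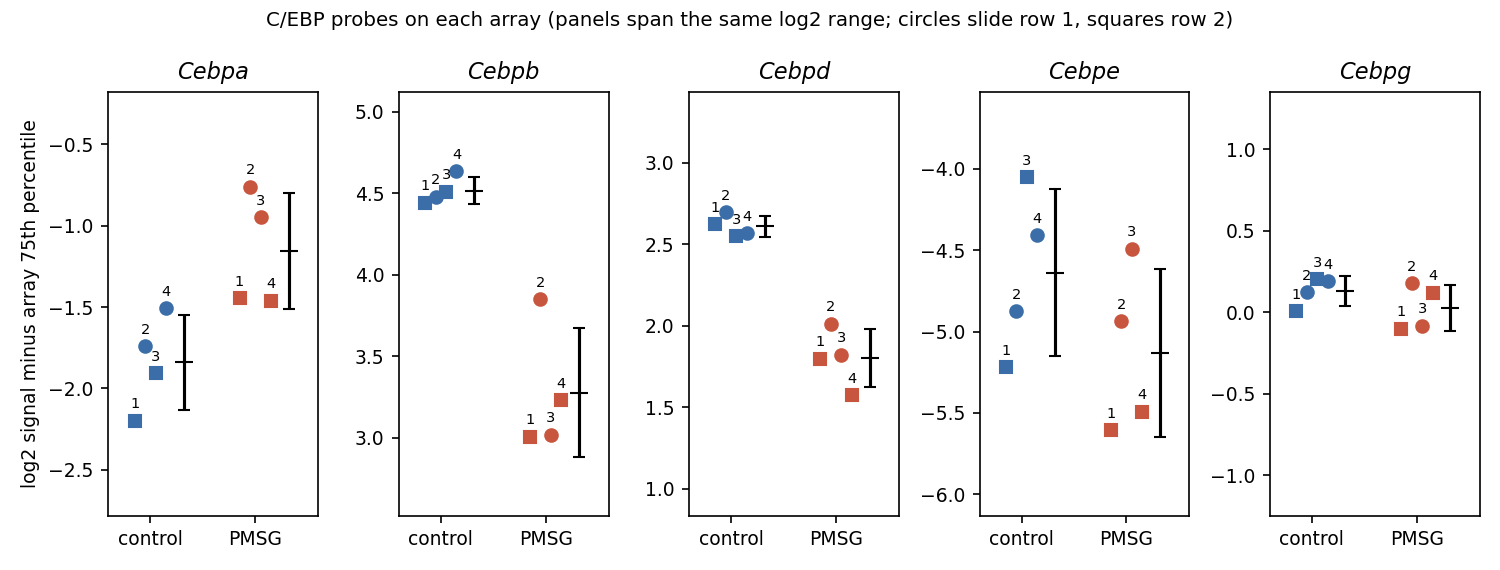
Log2 signal minus the array's 75th percentile (vertical axis, every panel spanning the same range) of the 5 C/EBP probes in the 4 control-labelled and 4 PMSG-labelled arrays; numbers are replicate numbers, circles and squares are slide rows 1 and 2, and black bars are means ± SD. Cebpb and Cebpd lie lower and Cebpa higher in every PMSG-labelled array, while Cebpe and Cebpg overlap.

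Cebpb, which encodes the C/EBP factor most tied to luteinization, showed the largest difference of the 5. Its scaled log2 values were 4.44, 4.48, 4.51 and 4.63 in control-labelled arrays 1 to 4. They were 3.01, 3.85, 3.02 and 3.23 in PMSG-labelled arrays 1 to 4. The control arrays lay close together, and PMSG array 2 was the nearest to them without reaching them. Before scaling, signals ran from 22635 to 27404 in control and from 6226 to 14784 in PMSG arrays. Group means were 4.52 ± 0.08 (SD, n = 4) and 3.28 ± 0.40 (SD, n = 4), a 2.36-fold lower level under the PMSG label (log2 difference -1.24, SE 0.19, 95% interval -1.68 to -0.80, limma adjusted p = 0.00173). This difference exceeded in size those of 91.4% of the tested probes, and 4.6% of all probes were past the threshold and at least 2-fold lower, and 7.2% at least 2-fold higher. The exact two-sided permutation test gave p = 0.0286, the smallest that 4 arrays against 4 allow. Within slide rows, with 2 arrays per group in each, the differences were -1.12 and -1.36.

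The Cebpb promoter is shown because this gene changed most and because its known inducers act through cyclic AMP. The 250 bases before its start, chr3:176816755-176817004 (plus strand, RefSeq, GRCr8), are printed with the cyclic AMP response element core TGACG (either strand) and the TATA box TATAAA in capitals.
Cebpb: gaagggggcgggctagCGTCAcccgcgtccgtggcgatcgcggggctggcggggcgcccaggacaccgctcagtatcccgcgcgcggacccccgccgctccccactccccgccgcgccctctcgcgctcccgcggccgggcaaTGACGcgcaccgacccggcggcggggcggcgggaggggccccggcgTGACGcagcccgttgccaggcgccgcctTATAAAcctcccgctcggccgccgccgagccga
This window held TGACG 3 times, from 234, 107 and 61 bases before the start, the first on the opposite strand, and TATAAA from 33 bases before it. TGACG occurred in 19% of 27457 rat promoter windows of the same length and TATAAA in 13.1%. The full palindrome TGACGTCA, found in 1.7% of windows, was not among these letters, nor was the C/EBP palindrome TTGCGCAA (0.164%) or the looser TTNNGCAA (9.2%), which contains it. These matches are letters in a sequence and not measured binding.

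Cebpd, known for its rapid induction in the acute phase response and early in fat cell formation, was lower in the same direction. Values were 2.62, 2.70, 2.55 and 2.57 in control-labelled arrays 1 to 4, and 1.80, 2.01, 1.82 and 1.57 in PMSG-labelled arrays 1 to 4. The gap between the groups was wider than the whole range within either group. Group means were 2.61 ± 0.07 (SD, n = 4) and 1.80 ± 0.18 (SD, n = 4), a 1.75-fold lower level (log2 difference -0.81, SE 0.11, 95% interval -1.06 to -0.55, limma adjusted p = 0.00112). Within slide rows the differences were -0.71 and -0.90. Cebpb and Cebpd passed under all 17 alternative settings, with log2 differences from -1.43 to -1.11 for Cebpb and from -0.97 to -0.73 for Cebpd.

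Cebpa, which encodes a factor that halts cell division and drives differentiation in fat, liver and myeloid cells, ran the other way. Values were -2.20, -1.74, -1.91 and -1.51 in control-labelled arrays 1 to 4. They were -1.45, -0.76, -0.95 and -1.46 in PMSG-labelled arrays 1 to 4. Every PMSG array lay above every control array, but PMSG arrays 1 and 4 lay only just above control array 4. Group means were -1.84 ± 0.29 (SD, n = 4) and -1.15 ± 0.35 (SD, n = 4), a 1.61-fold higher level (log2 difference 0.68, SE 0.21, 95% interval 0.20 to 1.17, limma adjusted p = 0.0370). The exact two-sided permutation p was 0.0286, as for Cebpd. The limma call was lost without control array 1 (0.0908), 2 (0.0677) or 3 (0.0821) and without PMSG array 2 (0.0848) or 3 (0.0866), within an adjusted p range of 0.00488 to 0.105 over 17 alternatives, 10 of which kept it. The highest of these came with each array centred on its median (log2 difference 0.52). Both arrays of slide row 1 were above both of row 2 in each group, by 0.43 on average for control and 0.60 for PMSG. The row term did not pass (limma adjusted p = 0.99991). In limma 0 of 25303 probes passed for the row, with 721, Cebpa among them, at an unadjusted p under 0.05. The group differences within rows were 0.77 and 0.60.

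**Figure D2:**
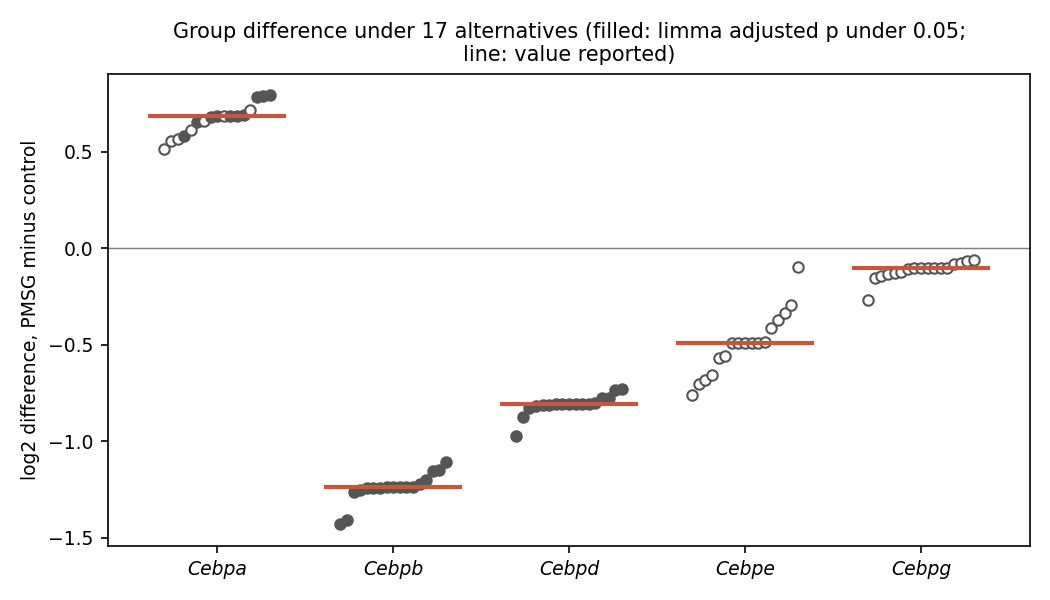
Log2 difference, PMSG minus control (vertical axis), of the 5 genes under 17 alternative settings (points, ordered by value; filled where the limma adjusted p was under 0.05) beside the value reported (line). Points for Cebpb and Cebpd are all filled, 10 of 17 are for Cebpa, and none are for Cebpe or Cebpg.

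The Cebpa promoter is given for comparison with that of Cebpb, since these genes moved in opposite directions. The 250 bases before its start, chr1:96896334-96896583 (plus strand, RefSeq, GRCr8), are printed with the same motifs in capitals.
Cebpa: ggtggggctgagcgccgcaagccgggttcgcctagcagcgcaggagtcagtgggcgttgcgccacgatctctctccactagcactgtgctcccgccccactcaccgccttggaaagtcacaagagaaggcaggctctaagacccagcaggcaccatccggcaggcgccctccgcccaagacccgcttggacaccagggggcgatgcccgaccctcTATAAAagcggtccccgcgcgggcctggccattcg
Only TATAAA matched, from 35 bases before the start, and TGACG did not. GC content was 67.2% in this window and 80.0% in that of Cebpb. Of the 5 genes, 4 had a promoter in the RefSeq table. The window of Cebpg held the CCAAT box letters CCAAT 2 times on the opposite strand (34.3% of all windows hold them), and that of Cebpe held none of the 7 motifs searched.

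Cebpe, known for its part in late granulocyte maturation, gave a dim signal in both groups. Its 2 spots per array ran from 26.8 to 64.1 in control and from 19.3 to 42.5 in PMSG arrays, all called well above background. Scaled values were -5.22, -4.88, -4.05 and -4.41 in control-labelled arrays and -5.61, -4.94, -4.49 and -5.49 in PMSG-labelled arrays 1 to 4, so the groups overlapped. The log2 difference was -0.49 (SE 0.32, 95% interval -1.23 to 0.25, limma adjusted p = 0.262), which leaves both no change and a difference of over 2-fold within its interval. Within slide rows it was -0.07 and -0.91, and after normexp background correction -0.10.

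Cebpg encodes a short C/EBP protein without an activation domain that pairs with other bZIP factors, among them ATF4. Its values were 0.01, 0.12, 0.20 and 0.19 in control-labelled arrays 1 to 4 and -0.10, 0.18, -0.08 and 0.12 in PMSG-labelled arrays 1 to 4. The ranges overlapped in part: PMSG arrays 1 and 3 lay below every control array, and control arrays 3 and 4 above every PMSG array. The log2 difference was -0.10 (SE 0.10, 95% interval -0.34 to 0.14, limma adjusted p = 0.461). Cebpg neighbours Cebpa on chromosome 1, with 73.9 kb between the probes in rn4, the opposite strand, and no protein-coding gene between them in the RefSeq table.

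Whether the members differed from each other in their group difference was tested on the ratio of 2 probes within an array, which needs no scaling. All 10 pairs were compared with an exact two-sided permutation test, adjusted over the 10 pairs by Benjamini-Hochberg. The ratio of Cebpa to each of the other 4 genes was higher in arrays labelled PMSG, with no overlap between groups. The log2 ratio of Cebpa to Cebpb rose by 1.92 (SD 0.22 in control and 0.33 in PMSG arrays, n = 4 each), that to Cebpd by 1.49, that to Cebpe by 1.18 and that to its neighbour Cebpg by 0.79 (exact p = 0.0286, adjusted p = 0.0476 for each). The ratios of Cebpb and Cebpd to Cebpg fell by 1.14 and 0.70 (exact p = 0.0286, adjusted p = 0.0476). These 6 of 10 pairs reached the smallest p the design allows. All 6 passed with any 1 PMSG array omitted and missed the threshold with any 1 control array omitted, with the same direction. Their adjusted exact p ran from 0.0408 to 0.0952. For a pair at the smallest p, the adjusted value is set only by how many of the 10 pairs share that p. Fewer did with a control array omitted, so a pair could miss at 0.0571 without a rise in its own exact p. The 6 pairs also share genes and are not independent. How many pairs of other probes would reach the smallest p was not computed. The count of 6 therefore cannot be read as particular to this family. The ratio of Cebpb to Cebpd changed by -0.43 with overlapping groups and did not pass (exact p = 0.0857, adjusted p = 0.122), but it passed without PMSG array 2, at -0.55 (adjusted exact p = 0.0408). The 3 other pairs, each with Cebpe, did not pass, with adjusted p from 0.143 to 0.400, and 2 of these passed after normexp background correction.

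**Figure D3:**
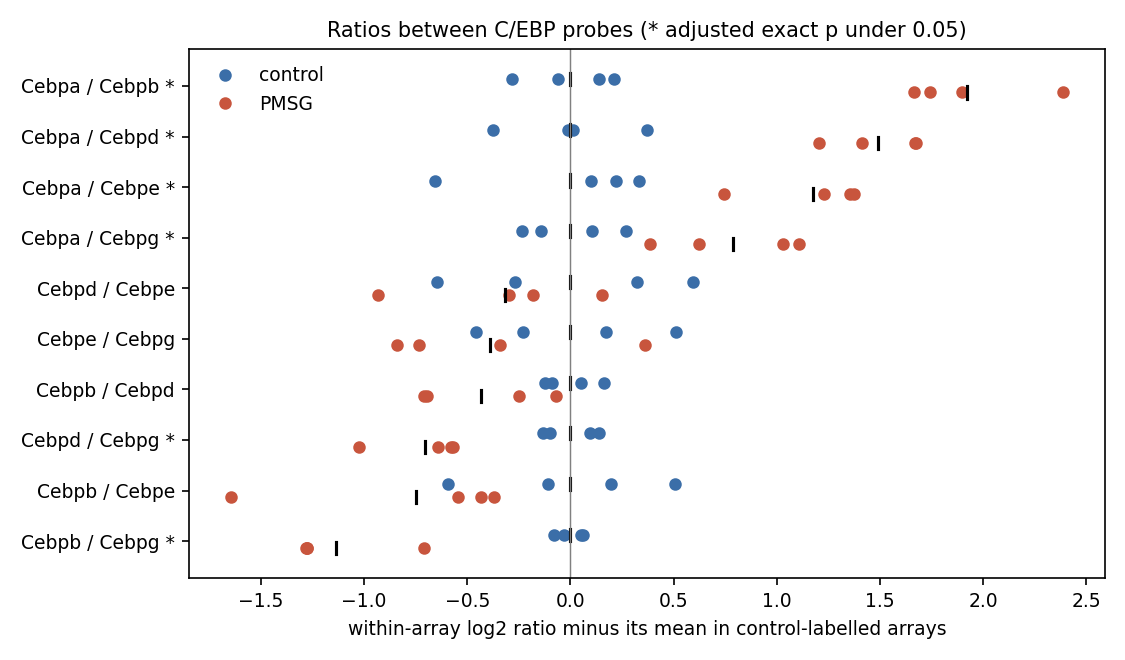
Within-array log2 ratio of 2 C/EBP probes, minus its mean in control-labelled arrays (horizontal axis), for the 10 pairs in each of 8 arrays; black ticks are group means and asterisks mark adjusted exact p under 0.05. All 4 ratios of Cebpa lie to the right in PMSG-labelled arrays, and those of Cebpb and Cebpd to Cebpg lie to the left.

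C/EBP factors pair with other bZIP proteins. Of 12 such partners and relatives listed, 11 were tested, 3 were higher and 2 lower in arrays labelled PMSG (45.5%, against 34.2% of all probes), and the median log2 difference was 0.29, against 0.11 over all probes. Here and in the lists below, a gene counts by its brightest tested probe, while the share of all probes counts every tested probe. That share was 36.9% when only probes above background on all 8 arrays were fitted. Ddit3, which encodes CHOP, a C/EBP relative that blocks the binding of its partners to their usual sites, stood at 1.07 ± 0.27 (SD, n = 4) in control and 2.08 ± 0.12 (SD, n = 4) in PMSG arrays. It rose by 1.01 (SE 0.15, adjusted p = 0.00147 by limma) and passed under all 17 alternatives. The clock-controlled PAR bZIP genes Dbp (0.78, adjusted p = 0.00727) and Tef (0.63, adjusted p = 0.0327) were higher, and 2 further Dbp probes were higher too. Batf3 (-0.52, adjusted p = 0.0281) and Creb1 (-0.40, adjusted p = 0.0151), the gene of a cyclic AMP responsive factor, were lower. Batf3 lost its call under 7 alternatives, Tef under 6 and Creb1 under 2. The number of partners past the threshold was 3 instead of 5 when control array 1, control array 3 or PMSG array 2 was omitted. Atf4, at -0.16, did not pass (adjusted p = 0.257).

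Of 20 genes that act on C/EBP factors, 18 were tested, 1 was higher and 7 were lower, with a median of -0.24. That is 44.4% past the threshold, against 34.2% of all probes. Map2k1, Map2k2, Mapk3, Rps6ka1 and Rps6ka3 belong to the ERK pathway, whose kinases phosphorylate C/EBPβ. Map2k1, encoding an ERK kinase, showed a change of -0.97 (log2, SE 0.12, adjusted p = 7.44e-04 by limma), and Celf1, an RNA-binding protein that acts on C/EBP translation, one of -0.81 (adjusted p = 8.65e-04). Map2k2 (-0.43), Rps6ka1 (-0.66) and Rps6ka3 (-0.30) were lower too (limma adjusted p = 0.00923, 0.00231 and 0.0334). Mapk3, encoding ERK1, stood at 0.13 and did not pass (adjusted p = 0.564).

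Genes of granulosa cell ovulation and luteinization, the process for which C/EBPα and C/EBPβ are required in mouse granulosa cells, were mostly lower. Of 23 listed genes 20 were tested, 12 were lower and 3 higher (75% past the threshold, against 34.2% of all probes). The median was -1.31, also with Ereg and Sult1e1 at their bounds, against 0.11 over all probes. Ereg and Sult1e1, both among the 12 lower, were above background on 4 control-labelled and 0 PMSG-labelled arrays. They met the filter only through the group where they were high. Where probes had to be above background on all 8 arrays, 12 listed genes passed instead of 15. The list was chosen with results of these arrays known, so its direction is no independent evidence. Runx2 changed by -5.33 (log2, SE 0.24, adjusted p = 1.69e-05 by limma), though its 2 other tested probes did not pass, at -0.66 and -0.36. Ereg, encoding an EGF-like ligand, was not well above background on any PMSG-labelled array and was at least 18.3-fold lower (mean of control arrays over the dimmest signal called above background). Normexp background correction, which adds an offset of 50 to every signal and so shrinks the differences of dim probes, gave -2.11 for its log2 difference. Akr1c3, which the list holds under its synonym Akr1c18, was above background on 4 of 4 control-labelled and 1 of 4 PMSG-labelled arrays, so the size of its difference is poorly fixed: -8.47 as measured and -5.44 after normexp. The AKR1C genes resemble each other, so which member this probe reads is uncertain.

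**Figure D4:**
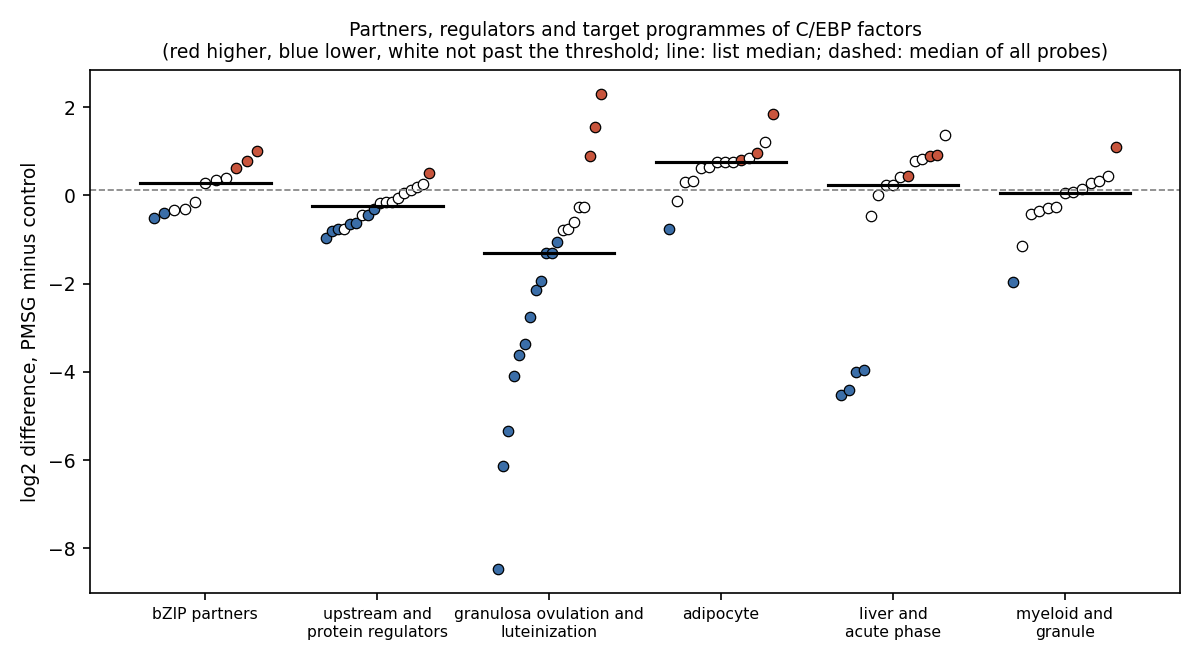
Log2 difference, PMSG minus control (vertical axis), of each tested gene in 6 lists (points; red higher, blue lower, white not past the threshold), with list medians (solid lines) and the median of all probes, 0.11 (dashed). The granulosa list reaches lowest, with 12 blue points, and the adipocyte list has a median of 0.76 with 3 red points.

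Gene programmes that C/EBP factors drive in other tissues showed no common direction. Of 14 adipocyte genes, all tested, 3 were higher and 1 lower (28.6%, under the 34.2% of all probes), with a median of 0.76. Cidea, a lipid droplet protein gene, was higher by 1.85 (SE 0.37, limma adjusted p = 0.00577) and Slc2a4, the insulin-responsive glucose transporter gene, by 0.96 (adjusted p = 0.00879), while Retn at 1.20 did not pass (adjusted p = 0.236) and ran from 0.50 without control array 2 to 1.72 without control array 3. Of 16 liver and acute phase genes 15 were tested, 3 higher and 4 lower (46.7%), with a median of 0.25. The lower ones stood far from the rest: A2m, a protease inhibitor, at -4.51, Hpx, the heme carrier hemopexin, at -4.42 and Orm1, an acute phase glycoprotein, at -3.99 (limma adjusted p = 3.67e-05, 1.13e-04 and 2.50e-04). After normexp these were -4.42, -3.05 and -2.79, all still past the threshold. Of 16 myeloid and granule genes 13 were tested (15.4% past the threshold), with 1 higher, Ltf (1.11, adjusted p = 0.00962), and 1 lower, S100a8 (-1.97, adjusted p = 0.0278). S100a9, the partner of S100a8, stood at -1.15 (adjusted p = 0.0741). It passed with quantile normalization (0.0382), median centring (0.0375) and without control array 4 (0.0468), and was -0.72 without control array 2. The S100a8 call was lost on omitting control array 3, PMSG array 1 or PMSG array 2, and with a block for replicate number.

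C/EBP genes are also expressed by macrophages, neutrophils and fat cells, which an ovary sample can hold. Over all tested probes, 17.6% passed and were higher in arrays labelled PMSG, and 16.6% passed and were lower. Of 7 macrophage and leukocyte markers, 4 were higher and none lower. Their summed scaled signal ran from 8.83 to 11.5 in control and from 13.3 to 15.4 in PMSG arrays. Of 6 tested neutrophil markers 1 was lower, and the sum ran from 0.403 to 1.20 and from 0.276 to 0.498. The neutrophil marker Ngp was the only listed marker of any type that was not tested. No adipocyte marker of 6 passed, with sums of 9.38 to 82.5 in control and 26.7 to 90.5 in PMSG arrays. Oocyte markers were higher in 7 of 7 cases (2.96 to 5.30 against 10.3 to 22.3), and endothelial markers were lower in 4 of 6 (19.96 to 23.4 against 15.4 to 17.1). Of 6 granulosa markers 1 was higher and 1 lower, with overlapping sums (96.7 to 168 in control and 97.4 to 128 in PMSG arrays). Theca markers were higher in 2 of 3 (31.2 to 40.2 against 23.3 to 48.2). Fibroblast markers were higher in 3 of 5 (122 to 139 against 138 to 159). Of 4 red blood cell markers 1 was lower (125 to 156 against 98.1 to 140). The part of these cells in the C/EBP differences was not tested.

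Likeness of pattern was measured as the Pearson correlation of scaled log2 values over the 8 arrays, among 14002 other named genes above background on all arrays. It is a description: the arrays form 2 groups and share their scaling. The genes most like Cebpb were Tpst2 (0.997), Ralb (0.996) and Epha2 (0.993), with group differences of -1.01, -0.81 and -1.58. With group means removed these correlations were 0.984, 0.983 and 0.950. The genes were picked for the highest correlation over the same arrays, so these values are no separate evidence. Most like Cebpd were Fxyd5 (0.996), Cdv3 (0.993) and St3gal5 (0.992). Most like Cebpa were Drg1 (0.975), Spns1 (0.969) and Scarf1 (0.966), whose own differences were small, at 0.23, 0.14 and 0.22. For Cebpe they were Fcnb (0.955), Btbd7 (0.921) and Tsr3 (0.912), and for Cebpg Lurap1l (0.944), Gypc (0.940) and Maco1 (0.937).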

How the data were processed

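Total RNA (500 ng per sample) was labelled with Cy3 and hybridised to 1-colour Agilent arrays, per the labels' protocols. The deposited scanner files hold spot intensity from Agilent Feature Extraction 11.5.1.1, detrended and with surrogates for dim spots, per the file headers. The authors also deposited log2 values, which matched the scanner signals on a log2 scale after subtraction of the array's own 75th percentile, with column medians from -3.21 to -2.82 and no centring of probes; columns not used numbered 0. Control and outlier spots were left out, log2 signals of a probe's spots were averaged, 17 of 30367 probes were dropped, and the 75th percentile was subtracted. Probes above background (at least 0.5 of spots) on at least 4 of 8 arrays were tested with limma 3.58.1 in R 4.3.3 (no covariates, Benjamini-Hochberg adjustment, threshold 0.05). The procedure was tested on simulated data with 25303 probes, 200 of them changed, where 52% of 50 changes of 1 (log2) were recovered. In the real data 34.2% of probes passed, a far larger share than was changed there, so recovery in these data can differ. Members and lists were chosen with earlier results of these data known. Named were all members, the 3 largest differences per list (1 regulator is not reported here), every bZIP partner that passed, and the 3 genes most like each member; the brightest tested probe stood for a gene. Star, Cyp11a1, Lhcgr, Atf4, Mapk3, Map2k2, Rps6ka1, Rps6ka3 and Sult1e1 were named outside this rule after their values were seen. Motifs were chosen after the array values had been examined. Symbols were updated through RefSeq (2822 probes renamed). The number of arrays limits the precision. Alternatives were background correction, scaling, filters, the deposited values, array weights, blocks for replicate number and slide row (from file names), and leaving out each array.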

Additional observations from a re-analysis of the deposited data

How the results depend on the processing

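All 17 alternatives kept the direction of all 5 members. The number of members past the threshold, 3, was 2 or 3, and Cebpa decided it. Cebpa missed the threshold with median centring (0.52) and with the replicate block (0.68, limma adjusted p = 0.0503), and lay between 0.55 and 0.79 on omitting any 1 array. Probes differing in all numbered 8658 and ran from 6552 to 11382 without 1 array. Of these 51.4% were higher, and with median centring 34.5%. The bZIP partners past the threshold, 5, were 3 after normexp and with the replicate block, and 3 to 5 without 1 array. Myeloid and granule genes, 2, were 5 with quantile normalization and with median centring, 1 with the replicate block and 1 to 3 without 1 array. Normexp background correction took the ratio changes of Cebpb to Cebpe to -1.14 and of Cebpd to Cebpe to -0.72. Both were then past the threshold (adjusted exact p = 0.0357), and that of Cebpe to Cebpg turned to 0.026. This correction adds 50 to every signal, and Cebpe spots ran from 19.3 to 64.1. Cebpe itself went from -0.49 to -0.10, while Cebpb, Cebpd and Cebpg stood at -1.24, -0.81 and -0.12 after it. The part of the offset in these ratio changes was not tested. The pairing by replicate number was not borne out (same-numbered arrays deviated with correlations of 0.0444, 0.0361, 0.183 and -0.0192); the block gave 7346 differing probes. With 1 slide and 1 scan date, neither could serve as a block. Slide column 1 held only PMSG arrays 1 and 2, and column 2 only control arrays 1 and 2. Column and group cannot be told apart there, and column was not tested. With 1 array left out, ratio changes were tested by the exact permutation test on the absolute difference of means, a choice made after seeing the data. Those of Cebpa then ran from 1.77 to 2.01 against Cebpb, 1.37 to 1.61 against Cebpd, 0.96 to 1.32 against Cebpe and 0.68 to 0.92 against Cebpg. Those to Cebpg ran from -1.28 to -1.09 for Cebpb and from -0.75 to -0.60 for Cebpd. These 6 missed the threshold in 24 cases, all without a control array, where fewer pairs shared the smallest p. In some of these cases the pair itself was above the smallest p. That held for Cebpa to Cebpg without any 1 control array (adjusted exact p from 0.0816 to 0.0952). It also held for Cebpa to Cebpe without control array 3 (adjusted exact p = 0.0816). The ratio change of Cebpb to Cebpd ran from -0.55 to -0.34 and passed in 1 case. Each member had 1 probe, so no other probe could be set in its place. Low signal limits Cebpe most.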

Other observations

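The promoters of the listed genes were searched for the loose C/EBP letters TTNNGCAA, on either strand of the 250 bases before the start, which 9.2% of 27457 windows held. In the granulosa ovulation and luteinization list 5 of 17 genes with a promoter in the table held them, namely Cyp11a1, Ptgs2, Runx2, Ptx3 and Abcb1b. Of these, Cyp11a1 and Runx2 were lower in arrays labelled PMSG (log2 differences -3.36 and -5.33), Ptx3 and Abcb1b were higher (1.55 and 2.30, limma adjusted p = 0.0180 and 0.00133), and Ptgs2 was not tested, so genes with these letters lay on both sides. In the liver and acute phase list 7 of 13 held them, among them Hpx and Orm1, which were lower, Cp, which was higher (0.90, adjusted p = 9.35e-04), and Lcn2, which stood at 0.01. In the myeloid list it was 5 of 12, in the adipocyte list 3 of 10, among the partners 1 of 10 and among the regulators 1 of 17. The lists were drawn up as partners, regulators and target programmes of C/EBP factors. Motifs were chosen after the array values were seen, so these shares beside that of all windows are no independent evidence. The genes above were named for holding the letters, and no binding was measured.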
